A study of Xenopus tropicalis with 5 samples.

Results

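The sites described here are strong m5C sites that stood alone in their gene in Xenopus tropicalis embryos. They were taken from the list of 5-methylcytosine (m5C) sites of the 100 ng libraries. A site was a member when it was the only listed site of its gene identifier, had a methylation level of at least 40% and was covered by at least 50 reads. The rule gave 404 sites in 404 genes, out of 18524 sites in 6458 genes. Of the 2269 lone sites in that list, 1812 had at least 50 reads, and 22.3% of these reached 40%. Each member was then looked up by chromosome, position and strand in the lists of 5, 10 and 20 ng, which the rule did not use.

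RNA bisulfite sequencing was run on polyadenylated RNA of stage 0 early embryos in 5 libraries, labelled as 2 of 100 ng, 1 of 5 ng, 1 of 10 ng and 1 of 20 ng of RNA. Every library came from pooled embryos of the same stage with no treatment, and the labels name no strain or genotype. The libraries of 100 ng, which the study describes in its text as technical and elsewhere as biological replicates, were combined by the authors into 1 list, so no group here had a replicate spread. Tests therefore compare the reads of single lists and not inputs in general, and the 95% intervals given hold counting error alone. The labelled inputs conflict with the protocol given for all libraries, which states one range for the converted RNA, so input means the label. The lists held sites from 20 reads and 10% upwards, with median coverages of 80 to 83 reads at the lower inputs and 183 reads at 100 ng. The fewest reads that kept C (unconverted reads) at a listed site were 5 at each lower input and 4 at 100 ng. At low coverage a site thus needed a level above 10% to be listed. A site missing from a list has no value there, and its level may have been low or its coverage short. Among genes with a site at 100 ng were 11 of 14 maternal egg transcripts looked for (such as gdf1, vegt and velo1, but not dazl, zar1 or wnt11). None of 10 zygotic genes had a site, and the maternal gene sox3 was at the same time a member. A transcript can be present without a listed site, so these counts do not show which transcripts the embryos held.

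In bisulfite sequencing an unmethylated cytosine is converted and read as T, while m5C is kept as C. The methylation level of a site is the share of its reads with C. In animal mRNA, m5C is written mainly by NSUN2, which modifies Type I sites next to a G-rich triplet at the foot of a hairpin, and by NSUN6, which modifies Type II sites in a CUCNA motif. Stage 0 frog embryos served the study as samples of maternal mRNA, which is made by the mother and stored in the egg. The study profiled this maternal RNA to map m5C and used the lower inputs to test how little RNA the method needs. Sequence around the sites and their place in the transcript were not analysed here, so members were not divided into Type I and Type II. Positions are those of the files, on the Xenbase X. tropicalis v9.1 genome, which do not state whether counting starts at 0 or 1.

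The values that chose the members were spread over the whole range allowed. At 100 ng the members had a median level of 59.4%, with quartiles of 48.5% and 75% and a highest level of 98.1%. In all, 207 members lay below 60%, 120 from 60% to below 80%, and 77 at 80% or above, of which 31 reached 90%. Their median coverage was 174.5 reads, with quartiles of 79 and 441 reads. Sites were on both strands, 208 on plus and 196 on minus. On the chromosomes numbered 1 to 10 there were 366 of them, on unplaced scaffolds 37, and 1 was on the mitochondrial genome. On the same strand, 2 members had another listed site within 1000 nt, and the median distance to the nearest one was 86829 nt. The rule left out every gene with a second listed site, so such neighbours were those of other genes. These distances were not measured for other classes of sites and are given as a description.

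A level of 40% was reached by like shares of sites in single-site genes and in genes with many sites. Among sites with at least 50 reads, 22.3% of lone sites (404 of 1812, interval 20.4 to 24.3%) reached it. The share was 21.9% in genes with 2 sites (572 of 2610, 20.3 to 23.6%), 22.6% in genes with 3 to 5 sites (1445 of 6397, 21.6 to 23.6%) and 22.0% in genes with 6 or more (1254 of 5710, 20.9 to 23.1%). These intervals overlap throughout. Median coverage rose across the same classes, from 176 to 183, 222 and 256 reads. As these levels are those the rule used, the shares are given as a description.

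**Figure D1:**
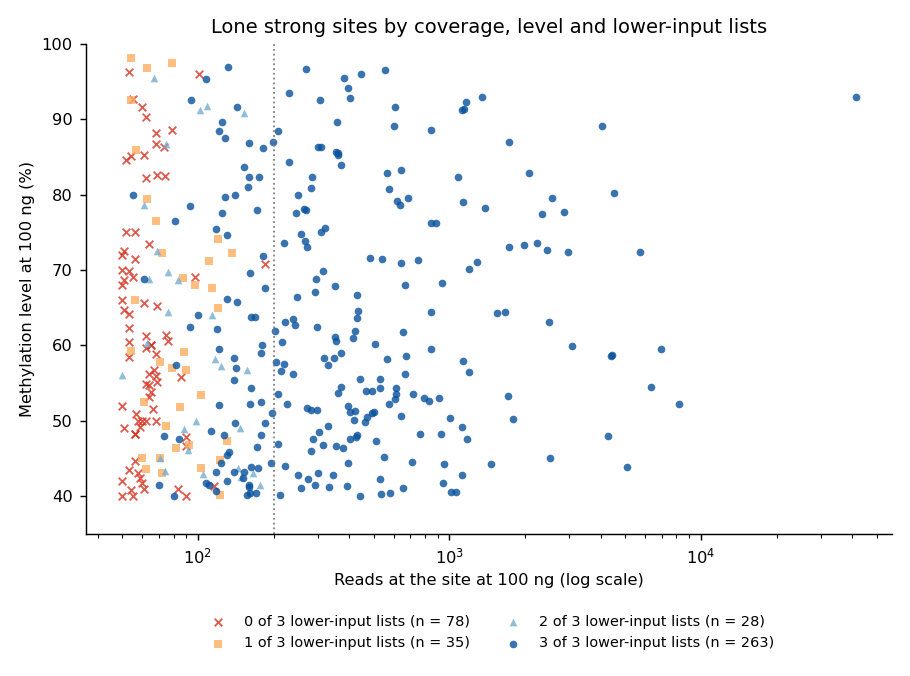
Each point is 1 of the 404 lone strong sites, with its reads at 100 ng on a log axis against its methylation level at 100 ng in percent; marker and colour give in how many of the 3 lower-input lists it was found. Every site to the right of the dotted line at 200 reads was found in all 3 lists, while the 78 sites found in none lie between 50 and 185 reads and at levels from top to bottom of the range.

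The deepest member was in marcksl1, which encodes a MARCKS-like protein of the membrane and actin cytoskeleton. This site (chromosome 2, position 82254338, plus strand, gene3048) kept C in 38415 of 41327 reads at 100 ng, a level of 93.0%. In the 5 ng library it was 92.9% (92.4 to 93.5%, 8926 reads), in that of 10 ng 92.9% (92.3 to 93.4%, 9190 reads) and in that of 20 ng 93.0% (92.4 to 93.4%, 10272 reads). The 3 lower-input libraries were thus within 0.1 points of each other, and no further marcksl1 site was listed in any of them. It alone held 19.7% of the 100 ng reads of the 161 members that had at least 50 reads in each of the 4 lists.

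The next deepest members were in genes of protein turnover, splicing, polyamine control and protein phosphorylation. The cdc34 gene encodes a ubiquitin-conjugating enzyme that acts with SCF ligases at the start of DNA replication. Its site (chromosome 1, position 86551507, plus strand) had a level of 52.1% over 8206 reads at 100 ng, and 53.6%, 54.1% and 54.1% at 5, 10 and 20 ng. The splicing factor gene hnrnph1 (chromosome 3, position 22473564, plus strand) had 59.5% over 6915 reads at 100 ng, while 745 of 1242 reads kept C at 5 ng, and the other lower inputs gave 59.5% (10 ng) and 58.0% (20 ng). The gene bud31, which encodes a component of the spliceosome, had 54.5% over 6355 reads (chromosome 9, position 32722216, plus strand), then 57.2%, 56.2% and 54.4%. Antizyme 1, encoded by oaz1, binds ornithine decarboxylase and limits polyamine synthesis. The oaz1 site (chromosome 1, position 83574326, minus strand) had 72.4% over 5711 reads at 100 ng, with 68.7%, 71.6% and 72.2% at 5, 10 and 20 ng. The csnk2b site, in the gene for the regulatory subunit of casein kinase 2, had 43.8% over 5065 reads (chromosome 8, position 53175247, minus strand), and 46.4%, 43.4% and 40.3% at the lower inputs. Within each of these genes the lower-input intervals overlapped, and no pair of lower-input libraries passed the test described below.

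Enzymes that modify RNA were themselves among the genes with a lone strong site. The gene nsun2, which encodes the Type I m5C methyltransferase, had 1 listed site (chromosome 6, position 60067656, plus strand, gene8027). Its level at 100 ng was 71.0%, over 1288 reads. The 5 ng library gave 73.7% (68.9 to 78.1%, 369 reads), the 10 ng library 66.2% (60.7 to 71.5%, 314 reads) and the 20 ng library 68.9% (63.7 to 73.8%, 344 reads). All 4 lists placed it well above the 40% of the rule, and no second nsun2 site was listed at any input. The mettl14 gene encodes the partner of METTL3 in the complex that writes N6-methyladenosine. The mettl14 site (chromosome 1, position 61094932, plus strand) had 59.9% over 3061 reads at 100 ng, with 59.5% of 454 reads, 59.4% of 609 reads and 59.8% of 646 reads at 5, 10 and 20 ng. These lower-input levels spanned 0.31 points. The median span was 6.54 points over the 161 members that reached 50 reads in all lists, many of them on fewer reads. Among other deep members the span was 0.33 points in id2 and 6.17 points in csnk2b. The cap methyltransferase gene rnmt (chromosome 6, position 87903770, minus strand) had 80% over 55 reads at 100 ng, then 87.3% of 71, 86.0% of 43 and 73.8% of 42 reads. It was the 1 member with more reads at 5 ng than at 100 ng. The gene trmt112, which encodes an activating partner of several RNA and protein methyltransferases, had 61.1% over 350 reads (chromosome 4, position 39901541, plus strand), then 55.3% of 38, 67.5% of 40 and 51.9% of 54 reads. Of 67 genes of this list with a site at 100 ng these 4 were members, all of them found at every input. They made up 0.990% of the members, where the list held 1.04% of all genes with a site at 100 ng. Among the lone sites with at least 50 reads the share was 0.938%. These shares rest on 4 members and were not tested.

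Cytosolic ribosomal proteins, the protein part of the ribosome, had lone strong sites of very different level and depth. Of 27 cytosolic ribosomal protein genes with a site at 100 ng, 17 had a single site and 5 were members. Over all 6458 genes with a site, 2269 had a single site and 404 were members. The family was not tested. The rps10 site (chromosome 2, position 77241610, minus strand) had 89.2% over 4038 reads at 100 ng and 88.4%, 89.1% and 90.3% at 5, 10 and 20 ng. The rps6 gene encodes the small-subunit protein phosphorylated by S6 kinase. Its site was methylated at 93.0% of 1346 reads, and at 89.2%, 94.0% and 91.8% at the lower inputs. In rpl17 the levels were 83.9% at 100 ng and 82.4%, 82.5% and 81.2% at 5, 10 and 20 ng, each over 80 to 85 reads. The rpl10a site lay lower, at 58.6%, 58.2%, 60.5% and 62.0%. The last of the 5, rpl15, had 62.3% of 53 reads at 100 ng and was in no lower-input list. Thus these single sites spanned from about the median of the members to near its top. Rps6, rpl17, rpl10a and rpl15 were named after their values had been seen, as members of the family.

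Splicing and translation factors were also among the members. The gene for the small subunit sf3b5 of the SF3b complex had 91.6% at 100 ng and 89.2%, 89.0% and 90.7% at the lower inputs. The gene for its partner complex subunit sf3a3 had 49.2%, then 49.2%, 47.2% and 48.6%. The gene for translation elongation factor eef2.1 had 76.2%, then 77.6%, 71.1% and 77.2%. These 3 were likewise chosen after their values had been seen. The gene abce1, which encodes the ATPase that splits ribosomes after termination, had 73.6% over 2228 reads at 100 ng (chromosome 1, position 49666697, plus strand), then 73.3%, 73.5% and 74.8%. A symbol prefix had placed it among solute carriers and ion channels, although it transports nothing.

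Regulators of transcription were present with 9 members in the list of transcription factors (median 271 reads, lowest 60) and 10 in that of chromatin and transcription regulators (median 151 reads, lowest 54), of which the best covered are given here. The gene sox3 encodes a SoxB1 transcription factor that Xenopus eggs store as RNA. The sox3 site (chromosome 8, position 34185805, minus strand) had 80.2% over 4522 reads at 100 ng, and 625 of 781 reads kept C at 5 ng, with 79.8% of 950 (10 ng) and 78.2% of 1020 reads (20 ng) after that. Id2, an inhibitor of basic helix-loop-helix factors, had 77.4% over 2326 reads in its gene (chromosome 5, position 133400668, plus strand), then 75.1%, 75.4% and 75.4%. The smarcb1 site, in the gene for a core subunit of the SWI/SNF chromatin remodeller, had 72.3% over 2965 reads and 72.3%, 73.0% and 71.8%. The gene taf15, which encodes an RNA-binding protein found with the TFIID complex, had 82.9%, then 81.6%, 82.3% and 86.0%. The ctcf gene, which encodes the zinc finger protein of chromatin loop anchors, lay near the lower end with 44.3%, 43.1%, 45.6% and 46.4%. In each of these 5 genes the levels of the lower inputs lay within 5 points of each other. The HMG-box gene hmgxb4, named by rule after sox3 and id2 in the transcription factor list, spanned 6.35 points. It had 89.6% over 357 reads at 100 ng, then 90.5%, 84.4% and 84.1% at 5, 10 and 20 ng.

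**Figure D2:**
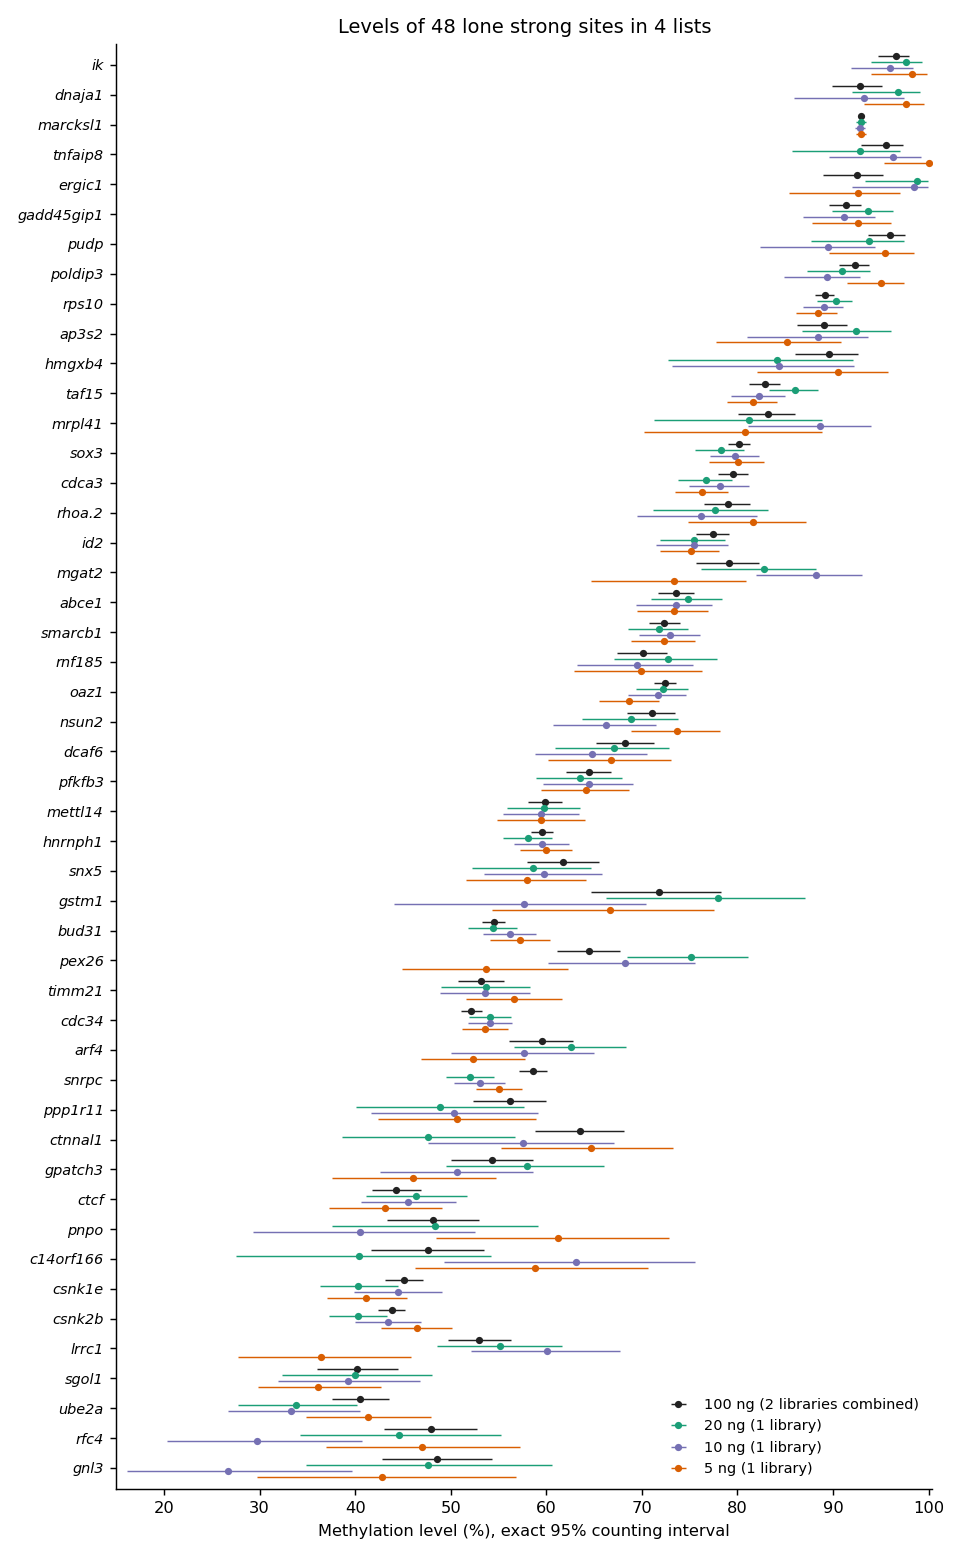
Methylation level in percent of the 48 lone strong sites named by rule that had at least 50 reads in all lists, 1 row per gene, ordered by the lowest lower-input level; points give the level in each list and bars the exact 95% counting interval. The rows run from ik, at 96.0% or more in every library, down to gnl3, whose lowest is 26.7%. The 6 sites chosen for a large span, lrrc1 and gnl3 among them, show the most scattered points. At snrpc the 100 ng point (58.6%), a value the rule used, lies to the right of all 3 lower-input points.

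Members at 90% or above at 100 ng stayed near that level in the lower-input libraries where they had at least 50 reads in every list. Of the 161 members that reached 50 reads in all lists, 11 were at 90% or above at 100 ng; in none of these was any lower-input level below 89.0%, and 6 were at 90% or above in all 3 lower-input libraries. The sites given next were chosen by their lowest lower-input level, so their values there are a description. The highest was in ik, which encodes a spliceosome-associated protein, with 96.6% over 557 reads at 100 ng and 98.3%, 96.0% and 97.6% at 5, 10 and 20 ng (chromosome 3, position 6258367, minus strand). The cochaperone gene dnaja1 had 92.8%, then 97.6%, 93.3% and 96.8% (chromosome 1, position 75528104, minus strand). The tnfaip8 site, in a gene of a lipid-transfer family linked to apoptosis, kept C in 77 of 77 reads in the 5 ng library, in 96.3% of 81 in the 10 ng library and in 92.8% of 97 in the 20 ng library. Ergic1, a protein that cycles between endoplasmic reticulum and Golgi, had 92.5% in its gene at 100 ng and 92.6%, 98.5% and 98.8% at the lower inputs. The gene of the mitochondrial ribosome component gadd45gip1 had 91.3% over 1141 reads, then 92.7%, 91.1% and 93.6%. Together with marcksl1 these are the 6. Pudp, a phosphatase of pseudouridine monophosphate, followed with a lowest level of 89.5%, and poldip3, a protein of mRNA export and translation, with 89.3%.

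Several of the highest levels at 100 ng rested on few reads. The highest, 98.1%, was in taf1b, a gene of the RNA polymerase I initiation machinery, with 53 of 54 reads (interval 90.1 to 100.0%). It was found at 5 ng only, in 21 of 21 reads. The ap5m1 site, in the gene of an AP-5 adaptor subunit, had 97.5% of 79 reads and was found at 10 ng alone, at 91.7% of 24 reads. The DNA repair gene ercc6l2 had 96.8% of 63 reads and was also found at 10 ng alone, at 90.5% of 21 reads. Better covered were ppib, the gene of endoplasmic reticulum cyclophilin B, with 97.0% of 132 reads and 92.5%, 96.7% and 81.5% at 5, 10 and 20 ng, and gpr75, a receptor gene, with 96.7% of 269 reads and 93.2%, 100.0% and 100.0%. The gpr75 libraries held only 29 to 60 reads each.

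Whether a member was found again followed its coverage. The 5 ng list held 285 of 404 members (70.5%, 65.8 to 74.9%), the 10 ng list 289 (71.5%, 66.9 to 75.9%) and the 20 ng list 306 (75.7%, 71.3 to 79.8%). All 3 lists held 263 members (65.1%, 60.2 to 69.7%), 28 were in 2 lists, 35 in 1 and 78 in none (19.3%, 15.6 to 23.5%). The median 100 ng coverage was 350 reads for members in all 3 lists and 61 reads for those in none, while their median levels were 59.5% and 60%. All 188 members with 200 or more reads at 100 ng were in all 3 lists, against 75 of 216 below that coverage. Where a member was listed, it had at the median 0.228 times its 100 ng reads at 5 ng, 0.22 times at 10 ng and 0.246 times at 20 ng; the lower lists start at 20 reads. These medians leave out the members that were not listed.

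The members of highest coverage in no lower-input list were, in order, LOC101733739 with 70.8% of 185 reads, an unnamed gene model (gene14437) with 41.4% of 116 reads, LOC100170420 with 97 of 101 reads, ptprg with 69.1% of 97 reads and hacd4 with 40% of 90 reads. The receptor tyrosine phosphatase gene ptprg and hacd4, a gene of fatty acid elongation, are the 2 with a named function.

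Below 200 reads, lone strong sites had a lower listed share than all strong sites of multi-site genes in each coverage bin and list. The margin was small in places, and the intervals overlapped except at 50 to 99 reads in the 5 ng list. Overlap does not show that the shares are equal, and coverage within a bin could still differ between the classes. Strong sites of multi-site genes (3271 sites past the same minimums) were deeper, with a median of 231 reads, and the lists of 5, 10 and 20 ng held 84.2%, 80.3% and 85.1% of them. With 50 to 99 reads at 100 ng, 21.4% of the members (27 of 126, 14.6 to 29.6%) were listed at 5 ng against 41.7% of the multi-site ones (300 of 719, 38.1 to 45.4%). In genes with exactly 2 sites, the class nearest to the members, the share was 30.7% (47 of 153, 23.5 to 38.7%), whose interval overlaps that of the members. At 10 ng these shares were 19.8% (13.3 to 27.9%) and 27.0% (23.8 to 30.4%), and at 20 ng 28.6% (20.9 to 37.3%) and 39.2% (35.6 to 42.9%), with overlapping intervals. With at least 100 but under 200 reads the shares were 77.8% and 87.2% at 5 ng, 84.4% and 84.5% at 10 ng, and 91.1% and 93.8% at 20 ng, again overlapping. Genes with exactly 2 sites had 24.8% at 10 ng and 35.3% at 20 ng with 50 to 99 reads. With at least 100 but under 200 reads they had 80.9%, 83.3% and 93.2% at 5, 10 and 20 ng. At 10 ng the members thus had the higher share in that bin. All these intervals overlap those of the members. From 200 reads upwards every member was listed everywhere, as were 99.9% or 100% of the multi-site strong sites in each list. Sites of 1 gene share its coverage and are not independent, so these intervals are too narrow for the multi-site genes. The differences in share were not tested. Lone sites below 40% were listed less: with 500 or more reads, 321 of 371 (86.5%, 82.6 to 89.8%) were at 5 ng, where all 93 members of that coverage were.

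**Figure D3:**
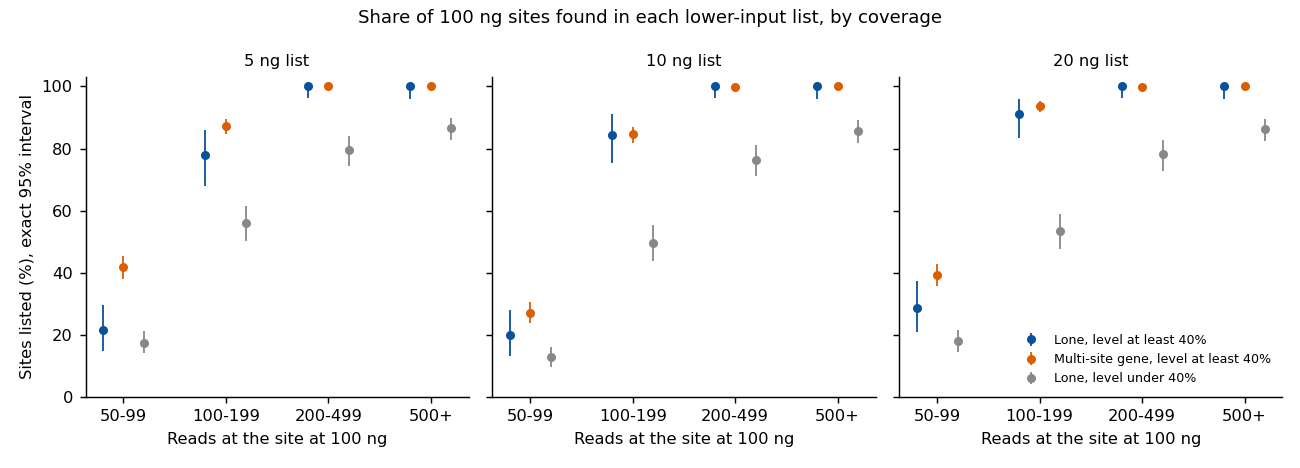
Share in percent of 100 ng sites found in the 5, 10 and 20 ng lists, by reads at 100 ng, for lone sites of at least 40% (blue), sites of at least 40% in multi-site genes (orange) and lone sites under 40% (grey); bars are exact 95% counting intervals. Blue and orange points meet at 100% from 200 reads upwards and part most at 50 to 99 reads in the 5 ng list (21.4% against 41.7%), while grey points stay below 90% even at 500 reads or more.

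Levels of the members were close to each other across the lower inputs. The 161 members that reached 50 reads everywhere had median levels of 58.7% (56.1 to 66.2%), 60.1% (56.2 to 64.8%) and 59.8% (56 to 63.8%) in the libraries of 5, 10 and 20 ng, beside 59.5% at 100 ng. At 5 and 10 ng 149 of them were at 40% or above, at 20 ng 152, and 141 (87.6%, 81.5 to 92.2%) in all 3. For strong sites of multi-site genes the last share was 84.4% (1343 of 1591, 82.5 to 86.2%), which overlaps. Of the 161 members, 20 fell short in at least 1 library, and their highest 100 ng level was 53.0%, in lrrc1. With 20 reads as the minimum there were 263 members, of which 235, 241 and 235 were at 40% or above at 5, 10 and 20 ng. Their lowest levels were 11.6%, 17.9% and 21.6%. Among them slc25a17 had 62.7% of 244 reads at 100 ng, then 48.0% of 75, 59.2% of 49 and 38.0% of 71 reads. In 5 of the 161 members all 3 lower-input levels were below 40%: nono, gmeb1, c9orf142, hk2 and LOC101734722. The hexokinase gene hk2 had 46.6% at 100 ng but 29.2%, 39.4% and 38.9% at the lower inputs, and nono, which encodes a paraspeckle protein, 40.5% over 1017 reads, then 37.3%, 38.9% and 38.8%. These 5 were named after their values had been seen.

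Between libraries of lower input the mean level of the members differed by less than its counting interval. From 5 to 10 ng the mean was 62.5% against 62.7% over 163 sites with at least 50 reads in both, a difference (5 minus 10 ng) of -0.17 points (interval -1.08 to 0.74). The difference of 5 minus 20 ng was -0.07 points (-0.96 to 0.81, 169 sites), and that of 10 minus 20 ng was 0.12 points (-0.76 to 1.01, 165 sites). In each pair the sites split almost evenly by direction, with 81 higher and 81 lower at 5 than at 10 ng, 81 and 88 at 5 than at 20 ng, and 77 and 88 at 10 than at 20 ng. Within 10 points of each other were 89.0%, 87.0% and 86.1% of the members. Pearson's r over the members was 0.921, 0.918 and 0.922, a description across sites that share a library and were all chosen to lie above 40%.

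Over 3 lower inputs the level of a member ranged by 6.54 points at the median (quartiles 3.91 and 10.2), and by 6.25 points (3.62 and 9.93) for strong sites of multi-site genes. The squared differences were 1.34, 1.41 and 1.25 times those of binomial sampling of reads for the members in the pairs 5 and 10, 5 and 20, and 10 and 20 ng. For strong multi-site sites they were 1.47, 1.42 and 1.46 times. Libraries thus varied somewhat more than their read numbers alone give, and the p-values per site below are to that extent too small.

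A two-sided Fisher's exact test per site, adjusted by the Benjamini-Hochberg method over all sites of a pair with an adjusted p threshold of 0.05, called no member between lower inputs. None of 163 members was called between 5 and 10 ng, where 0.0146% of all 6835 sites were, none of 169 between 5 and 20 ng (0.0279% of 7179) and none of 165 between 10 and 20 ng (0.0429% of 6986). At an unadjusted p under 0.05 there were 12, 11 and 14 members (7.36%, 6.51% and 8.48%), beside 7.21%, 6.66% and 6.54% of all sites. A normal test with the variance multiplied by the estimated factor between libraries, 1.42, called 0 members and 0% of all sites in each pair. That factor was estimated from these same pairs, so this result is no separate evidence. Against 100 ng, whose values chose the members, the Fisher test called 0 of 176 at 5 ng (0.278% of all sites), 0 of 170 at 10 ng (0.0406%) and 1 of 183 at 20 ng (0.15%), from which nothing is read. At an unadjusted p under 0.05 these were 19, 14 and 19 members (10.8%, 8.24% and 10.4%), beside 8.75%, 8.61% and 7.4% of all sites. Of them 14, 9 and 12 were lower than at 100 ng. With the variance factor 0 members were called, where 0.0252%, 0% and 0.0125% of all sites were. The mean level of the members differed from that at 100 ng by -0.89 (-1.60 to -0.18), -0.63 (-1.35 to 0.08) and -0.91 points (-1.60 to -0.23). Strong sites of multi-site genes gave -1.11, -0.66 and -0.78 points. Both classes were chosen by their 100 ng level, so nothing is read from these differences.

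The 1 member called against 100 ng was snrpc, the gene of the U1 snRNP protein C that recognises the start of introns. Its site (chromosome 2, position 60781797, minus strand) had 58.6% over 4430 reads at 100 ng. The 5, 10 and 20 ng libraries gave 55.1% (52.7 to 57.4%, 1731 reads), 53.1% (50.4 to 55.7%, 1376 reads) and 52.0% (49.5 to 54.5%, 1538 reads). All 3 lower-input values were below that of 100 ng, and their own intervals overlapped. The rule chose this site by its 100 ng level, so nothing is read from that direction. With the variance factor it was not called.

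Large spans over the lower inputs occurred at moderately covered sites. The widest was in lrrc1, a gene of a leucine-rich repeat protein of cell junctions, where the 5, 10 and 20 ng libraries gave 36.4% (27.8 to 45.8%, 118 reads), 60.1% (52.2 to 67.7%, 163 reads) and 55.1% (48.5 to 61.6%, 234 reads). The 5 ng library stood below the others, by 23.7 points from 10 ng (Fisher's exact test with Benjamini-Hochberg adjustment over all sites, adjusted p = 0.242) and 18.7 points from 20 ng (adjusted p = 0.327). The pex26 gene encodes the anchor of the peroxisomal import machinery. In it the levels were 53.7% of 136 reads, 68.2% of 151 reads and 75.1% of 193 reads at 5, 10 and 20 ng, and 5 ng differed from 20 ng by 21.5 points (adjusted p = 0.203, same exact test). C14orf166 (58.8%, 63.2% and 40.4%), gnl3 (42.9%, 26.7% and 47.6%), pnpo (61.2%, 40.5% and 48.3%) and gstm1 (66.7%, 57.6% and 77.9%) had 56 to 89 reads per library. The nucleolar GTPase gene gnl3, the vitamin B6 gene pnpo and the glutathione transferase gene gstm1 each had the 10 ng library at the low end, where lrrc1 had that of 5 ng. Spans of 20 points or more were found at 6 of 161 members (3.73%) and at 45 of 1591 strong multi-site sites (2.83%).

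**Figure D4:**
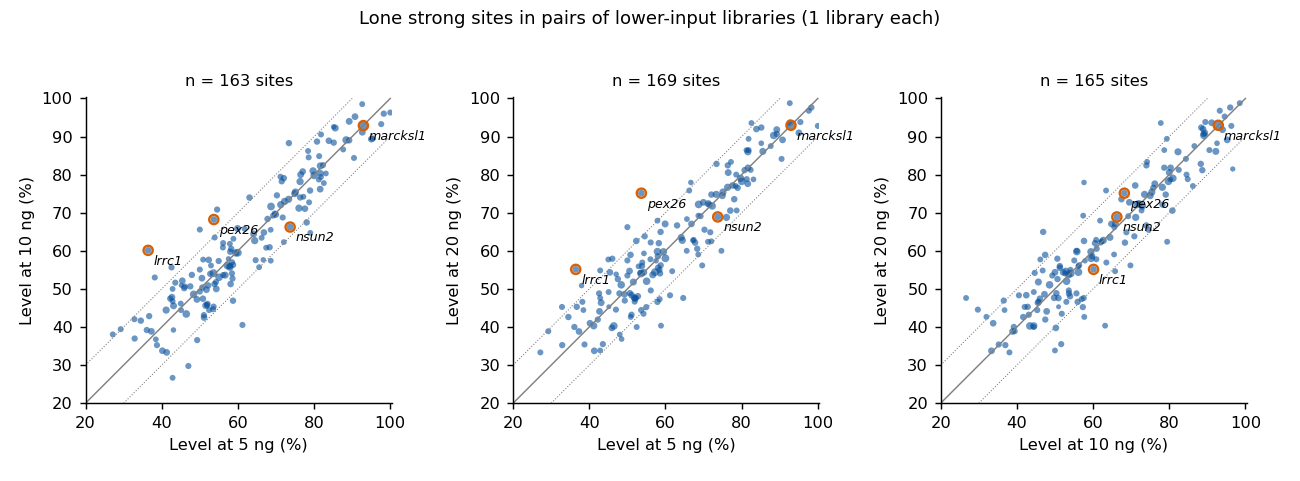
Methylation level in percent of the lone strong sites in pairs of lower-input libraries, 1 point per site with at least 50 reads in both, larger for more reads at 100 ng; the solid line is equality, the dotted lines are 10 points either side and 4 genes are circled and named. The points follow the line with no shift to one side (163, 169 and 165 sites), marcksl1 lies on it, and lrrc1 and pex26 lie above the upper dotted line in the panels of 5 ng.

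Members just inside the thresholds of the rule had values close to those of excluded sites. Exactly at 40% were 5 members, hacd4 (36 of 90 reads), krr1 (22 of 55), kat5 (32 of 80), c9orf142 (176 of 440) and LOC101731300 (20 of 50), the last 2 outside the naming rule. Just outside were LOC100486672 at 39.9% of 637 reads, uxs1 at 39.8% of 1183 reads and sart1 at 39.7% of 1664 reads. Just inside 50 reads were zbed1 (68.0%), abcd3 (56%) and ppp2r4 (70.0%), and just outside, at 49 reads each, prr11 (59.2%), kcnj5 (63.3%) and slc44a4 (55.1%). Uxs1, just outside, was above 40% in every lower-input list, at 42.6%, 46.4% and 43.7%, while kat5, just inside, had 46.2%, 32.3% and 27.3% on 22 to 31 reads.

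At each lower input most listed members were the only listed site of their gene, and most sites that joined them were weak. Another site stood beside 45 of 285 listed members at 5 ng (15.8%), 37 of 289 at 10 ng (12.8%) and 39 of 306 at 20 ng (12.7%). Lone sites below 40% gave 15.3%, 12.9% and 13.0% of those listed. Counted over all member genes, whether or not the member itself was listed, a further site was found in 51 of the 404 genes at 5 ng (12.6%, 9.55 to 16.3%), in 45 at 10 ng (11.1%, 8.25 to 14.6%) and in 47 at 20 ng (11.6%, 8.67 to 15.2%). Over the 3 lists 99 genes (24.5%, 20.4 to 29.0%) had one at least once. Genes whose lone site was below 40% gave shares close to these, 13.1%, 10.6% and 11.5%, and 24.2% over all lists. The further sites had median levels of 13.7% at 5 ng, 13.6% at 10 ng and 13.6% at 20 ng, near the 10% floor of the lists, and median coverages of 51 to 54.5 reads. For those of low coverage the minimum of 5 unconverted reads set a floor above 10%. Of 127 such sites 98 were in a single list, 24 in 2 and 5 in all 3. The 5 recurrent ones were in MGC69416, hmgxb4, plin3, rab11fip4l and tubgcp4. In hmgxb4, an HMG-box gene, the recurrent site had 12.6% of 420 reads, 10.0% of 498 reads and 11.7% of 539 reads at 5, 10 and 20 ng, beside 90.5%, 84.4% and 84.1% at the lone site 6975 nt away. The lipid droplet gene plin3 had 16.7%, 15.4% and 14.9% at its recurrent site.

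Some further sites were next to the member. Of the 127, 9 lay within 30 nt of the lone site, among them the neighbouring base in pex26, rpl17 and scp2, and a site at 2 nt in dcaf6. In scp2, which encodes sterol carrier protein 2, the neighbouring base was listed at 10.8% of 166 reads at 5 ng and at 11.4% of 149 reads at 10 ng. Only 39 of the 127 lay within 1000 nt of the member, at a median distance of 2507 nt along the genome, introns included. Levels of 40% or more at a further site were seen 4 times at 5 ng, never among the 52 further sites at 10 ng, and once at 20 ng. They were in dnase2 (43.2% of 37 reads), hmgxb4 (40.9% of 22 reads), tbc1d32 (77.8% of 27 reads) and nelfe (77.3% of 22 reads) at 5 ng, and in nelfe again (45.0% of 20 reads) at 20 ng. All of these had fewer than 40 reads. The genes in this paragraph and the recurrent ones were named after their values had been seen.

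The same rule applied to each lower-input list chose partly other sites. At 5 ng it chose 200 sites, of which 138 were members (69.0% of that list and 34.2% of the members). At 10 ng 133 of 229 were members (58.1% and 32.9%), and at 20 ng 146 of 212 (68.9% and 36.1%). Of those that were no members, 50, 73 and 55 were in genes with further sites at 100 ng, and 11, 23 and 11 were below 40% there. In all 4 lists together 100 sites met the rule.

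The members came from genes of many functions. Lists were made from symbol prefixes, and 141 members fell into at least 1 of 13 lists, while 263 were in none. Vesicle trafficking had 20 members (4.95% of the members, beside 4.08% of the 1812 lone sites with 50 reads), RNA processing, translation and decay 18 (4.46%, beside 4.69%), ubiquitin and proteasome 16 (3.96%, beside 3.86%) and mitochondrial proteins 14 (3.47%, beside 3.86%). Cell cycle and mitosis had 12 (2.97%, beside 2.37%), chromatin and transcription regulators 10 (2.48%, beside 3.15%), and signalling receptors and kinases 10 (2.48%, beside 3.86%). Transcription factors (beside 2.48%), solute carriers and ion channels (beside 2.43%) and glycosylation, lipid and sugar enzymes (beside 2.10%) had 9 each, or 2.23%. Cytoskeleton and small GTPase regulators had 7 (1.73%, beside 2.43%), and DNA replication and repair (beside 1.38%) and RNA modification enzymes (beside 0.938%) 4 each, or 0.990%. Prefixes also caught genes of other functions, among them cdc40 (splicing) in the cell cycle list, gpatch3 in the glycosylation list and abce1 in the solute carrier list. They missed genes as well, since the spliceosome genes bud31 and ik were in no list. The counts are thus those of the prefixes and not full counts of a function. No list was tested, and nothing particular to a list is read from these shares.

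Some of the lists' best covered members show the width of levels within a function. In vesicle trafficking arf4, a small GTPase gene of the Golgi, had 59.5% at 100 ng and 52.3%, 57.6% and 62.6% at 5, 10 and 20 ng. The sorting nexin gene snx5, which works with retromer, had 61.8%, then 58.0%, 59.8% and 58.6%. The adaptor subunit gene ap3s2 lay higher, at 89.1%, then 85.2%, 88.4% and 92.4%. Among mitochondrial proteins timm21, of the inner membrane translocase, had 53.2% over 1718 reads, then 56.7%, 53.6% and 53.7%. The mitochondrial ribosomal gene mrpl41 was higher, at 83.2%, then 80.8%, 88.7% and 81.2%. In the ubiquitin list rnf185, a ligase of the endoplasmic reticulum, had 70.1% over 1193 reads and 69.9%, 69.5% and 72.7%. The conjugating enzyme gene ube2a, whose product acts on histone H2B and PCNA, had 40.5%, then 41.3%, 33.3% and 33.8%. Mitosis was represented by cdca3, a trigger of WEE1 degradation, at 79.6%, then 76.3%, 78.2% and 76.7%. The shugoshin gene sgol1, which guards centromeric cohesion, lay at the other end, at 40.2%, then 36.1%, 39.2% and 40%. Sugar metabolism had pfkfb3, a regulator of glycolysis, at 64.4%, then 64.1%, 64.4% and 63.5%. N-glycan synthesis had mgat2 at 79.1%, then 73.4%, 88.3% and 82.8%. Other best covered members varied more between the lower inputs. At 5, 10 and 20 ng slc25a17, in the mitochondrial list, had 48.0%, 59.2% and 38.0%, and rfc4, in the repair list, 47.0%, 29.8% and 44.6%. In ctnnal1, of the cytoskeleton list, the levels were 64.7%, 57.5% and 47.6%, and in slc10a7 54.3%, 75.6% and 59.3%. They are given here for their wide spread. Over the 263 members in all 3 lower lists the median of the mean lower-input level was 58.3%, and list medians ran from 43.6% for the 2 such replication and repair members to 75.3% for the 5 such transcription factors.

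**Figure D5:**
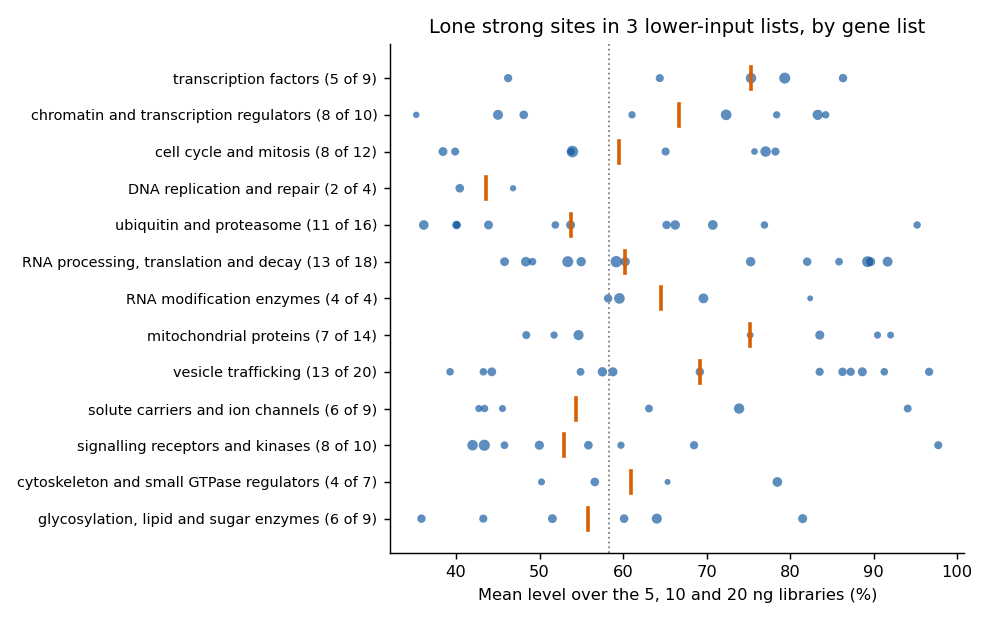
Mean methylation level in percent over the 5, 10 and 20 ng libraries for lone strong sites found in all 3, grouped by gene list, with the number plotted of the number of members in brackets; point size follows reads at 100 ng, orange bars are list medians and the dotted line is the median of all 263 such members (58.3%). Every list with more than 4 points spreads over 30 points or more.

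A few members were no ordinary nuclear mRNA or had damaged names. One was the mitochondrial small ribosomal RNA (s-rRNA, position 909 of the mitochondrial genome, plus strand), which had 71.6% of 483 reads at 100 ng and 71.5% of 207 reads, 78.2% of 147 reads and 72.1% of 147 reads at 5, 10 and 20 ng. In mammals the enzyme NSUN4 methylates a cytosine of this RNA. Its 3 lower-input levels overlapped in their intervals, and it was the 1 member on the mitochondrial genome. The symbols of 2 members had been turned into calendar dates in the files, gene20220 (40.4% of 171 reads, then 26.5%, 17.9% and 30%) and gene29199 (64.7% of 51 reads, in no lower list), and no gene name is given to them here. Of the 404 symbols, 358 were found as such in the RefSeq gene table of another assembly and 14 more as synonyms. These members were named after their values had been seen.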

How the data were processed

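The members and gene lists were chosen with earlier results of these data known. RNA of pooled embryos was poly(A)-selected, bisulfite converted and sequenced from a directional kit. According to the study's methods, reads were trimmed, mapped to converted references with HISAT2 and Bowtie2, filtered for reads rich in unconverted C, and sites in conversion-resistant genes were removed. For samples with replicates, as at 100 ng, the methods required a site to be present in both libraries, with an exception. A site missing from either library for lack of coverage needed at least 5 unconverted reads in the other. The single libraries of 5, 10 and 20 ng could not be filtered for presence in both. Their listed sites had at least 5 unconverted reads each. These differences in filtering bear on which sites are alone and on which are listed. The authors deposited per site the coverage, a count of C and T reads, the m5C level, a fraction of these reads with C, and the site's p-value, which was not used here.

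Unconverted reads were level times coverage, whole to within 2.6e-05 reads at every site. Shares and levels have exact Clopper-Pearson intervals, medians order-statistic intervals, and mean differences intervals from the binomial variance of the reads, all at 95%. Reads carry no molecular identifiers here, so these intervals cover counting error only. Fisher's exact test was run with scipy on sites with at least 50 reads in both lists and adjusted by Benjamini-Hochberg over all of them, in each of 6 pairs. It was tried on simulated reads drawn by binomial sampling alone, without the extra variance between libraries found in these data. That simulation therefore does not show how small a difference would be called here. The variance factor was averaged over the 3 lower-input pairs, from sites with a level of 30% upwards. Named members were, by rule, the 6 of highest level and the 6 of highest coverage at 100 ng, the 8 with the highest lowest level and the 6 with the largest range over the lower inputs, every member called, the 3 nearest inside and outside each threshold, the 5 of highest coverage in no lower list, and up to 3 per gene list. Exceptions are marked. Alternatives were coverage minimums of 20 and 100 reads, level minimums of 30% and 50%, loneness in the union of lists or by symbol, read weighting, leaving out a library, a minimum difference of 10 points and the variance factor. The planned motif search was not run.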

Additional observations from a re-analysis of the deposited data

How the results depend on the processing

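The 100 ng libraries were deposited as 1 list and each lower input has 1 library, so depth and the list minimums limit what can be said of sites below about 200 reads. Of 97 alternative values 68 stayed within the interval of the reported value or, for counts, within 1.5 times of it, 21 shares or levels fell outside that interval, and 8 counts fell by more than 1.5 times. The 68 include pairs of lists in which no member was called. There a minimum difference of 10 points can only remove calls, and the variance factor makes calls harder. Those values could hardly change, so the 68 is no measure of how stable the results are. No called difference changed direction; the mean differences between lower inputs, all within their intervals of 0, changed sign under some settings. A rule with 20 reads (500 sites) lowered the shares listed at 5, 10 and 20 ng to 57.8%, 58.2% and 62.4%, and one with 100 reads (278 sites) raised them to 92.8%, 94.96% and 97.1%. A level minimum of 30% gave median levels of 51.1%, 50.8%, 48.7% and 50.5% at 5, 10, 20 and 100 ng, and one of 50% gave 68.6%, 67.8%, 67.1% and 69.3%. Weighting by reads replaced the median with a mean, which was 69.1%, 69.1%, 69.2% and 69.2%. Without marcksl1, an alternative chosen after seeing the data, this weighted mean was 63.3%, 63.1%, 63.2% and 63.4%. The unweighted means of the members with 50 reads in every list were 62.5%, 62.8%, 62.7% and 63.4%, so part of the move came from the change to a mean. Without 1 lower-input library the share listed in all the others was 66.1 to 69.1%. The 1 call against 100 ng (20 ng, snrpc) became 0 with the variance factor and 0 with a minimum difference of 10 points. Genes with a further site fell from 51, 45 and 47 to 28, 24 and 25 with 50 reads, and to 13, 7 and 10 with a level of 20%. Strong sites of genes with exactly 2 sites were listed at 76.0%, 75% and 80.8%. No paired analysis was possible because only the 100 ng group had 2 replicate numbers and its libraries were combined.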
